A study of Rattus norvegicus with 8 samples.

Results

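Transcripts of 6 genes of intestinal sodium absorption were followed in rat small intestine: the sodium-hydrogen exchangers Slc9a2 and Slc9a3, the exchanger scaffold Slc9a3r1, the alpha subunit of the epithelial sodium channel Scnn1a, the beta subunit of the sodium pump Atp1b1, and the kinase Sgk1. They were taken by exact gene symbol, with earlier results of these data known, and are 6 of 52753 loci in the deposited table. The rule itself uses none of their values. Each symbol named a single locus. Stranded mRNA sequencing was done on the small intestine of rats (strain Sprague Dawley, postnatal day 21), homogenised along its entire course. The CF group holds 4 libraries from rats with cystic fibrosis, an inherited disease of the epithelial anion channel CFTR, and the WT group holds 4 libraries from wild-type rats of the same strain and age. The labels name neither the CF allele nor any treatment, and they leave unsaid whether the libraries are separate animals, so a p-value here measures the spread between libraries, which may be technical. The libraries are numbered 0 to 3 within each group, and the numbers only name them.

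Sodium crosses the gut epithelium in steps held by different proteins. At the luminal brush border it enters in exchange for protons through NHE3 (Slc9a3) and NHE2 (Slc9a2), together with glucose and amino acids through sodium-coupled carriers, and, chiefly in the distal colon, through the epithelial sodium channel ENaC. At the basolateral side the sodium pump, built of a catalytic alpha and a glycoprotein beta subunit, drives it out to the blood and keeps cell sodium low. NHERF1 (Slc9a3r1) is a PDZ protein under the brush border that binds NHE3, CFTR and, through ezrin, the actin core. SGK1 is a kinase made in response to corticosteroids, which raises the surface activity of NHE3 and ENaC.

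Slc9a2 and Slc9a3r1 were the pair of these genes whose levels tracked each other across libraries, and the 250 bases before a start site of each are shown for that reason. They are RefSeq sequences of build GRCr8, whereas the expression table uses Rnor_6.0. Genes outside the 6 tracked each of the pair more closely, such as Mpst for Slc9a2 (Pearson's r = 0.992) and Aqp3 for Slc9a3r1 (0.986). A link between these sequences and the levels was not tested. Capitals mark GC boxes, the letters GGGCGG or their reverse complement CCGCCC.
Slc9a2 (GRCr8 chr9:50427362-50427611, plus strand): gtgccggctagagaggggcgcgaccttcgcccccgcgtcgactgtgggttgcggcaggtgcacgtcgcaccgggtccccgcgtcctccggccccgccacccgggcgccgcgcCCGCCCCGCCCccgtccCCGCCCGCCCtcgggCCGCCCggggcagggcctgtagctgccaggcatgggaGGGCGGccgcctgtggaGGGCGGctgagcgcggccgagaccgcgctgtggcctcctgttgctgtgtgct
Slc9a3r1 (listed as Nherf1, GRCr8 chr10:100901915-100902164, plus strand): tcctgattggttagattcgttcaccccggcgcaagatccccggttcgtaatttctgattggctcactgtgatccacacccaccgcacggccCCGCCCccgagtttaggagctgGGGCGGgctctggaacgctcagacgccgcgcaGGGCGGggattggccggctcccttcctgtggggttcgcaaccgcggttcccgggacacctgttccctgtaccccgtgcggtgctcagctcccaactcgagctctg
The Slc9a2 window held 7 GC boxes, the nearest beginning 52 bases before the start, and the Slc9a3r1 window held 3, the nearest 105 bases before it. GC boxes occurred in 30.5% of 33360 rat windows of the same length, and 4 or more of them in 3.68%. The windows were 79.6% and 64.8% G and C, against a median of 51.6% over all windows. A second RefSeq start of Slc9a2 had no GC box. Windows were found for 4 of the 6 genes and numbered 7 in all: the Slc9a3 window held 2 GC boxes, and the 3 Sgk1 windows held 4, 2 and 0. The glucocorticoid receptor half-site AGAACA occurred in none of the 7 windows and in 17.5% of all windows. The AP-1 letters TGANTCA, the GATA letters GATAAG and the HNF1 letters GTTAAT were also in none of the 7, and in 6.35%, 6.18% and 6.46% of all windows. The search covered both strands, and GC boxes may overlap each other.

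The CF libraries held 18.6 to 20.9 M assigned fragments and the WT libraries 15.3 to 20.8 M. CF libraries 0 and 3 stood apart on the first principal component of log2 CPM, at −56.9 and −43.6, while the other 6 libraries lay between 4.12 and 28.6. Tissue identity was checked on 20 enterocyte markers, the digestive enzymes and lipid carriers of the absorptive cell. None was at 0 in the 8 libraries, and they summed to 14868 to 39448 CPM in CF libraries and 21805 to 36526 CPM in WT libraries. Their mean log2 level, centred on each gene's mean over the 8 libraries, was −0.94, 0.52, 0.14 and 0.19 in CF libraries 0 to 3, against 0.01, −0.06, −0.24 and 0.39 in WT libraries 0 to 3, so CF library 0 was the lowest of all. Among the other marker lists, 14 of 15 early-response and heat-shock genes had a higher mean in CF. Their centred mean was 0.21 to 0.59 in CF libraries and −0.55 to −0.07 in WT libraries, they summed to 525 to 623 CPM in CF libraries and 355 to 459 CPM in WT libraries, and Hspa1a was at 0. Smooth muscle markers (5 of 6 higher in CF) summed to 5678 to 7376 CPM in CF libraries and 3765 to 5530 CPM in WT libraries, and 4 of 4 blood vessel markers were lower in CF, summing to 70.9 to 114 CPM in CF libraries and 109 to 145 CPM in WT libraries. Goblet markers (5 of 6 higher in CF) summed to 7223 to 10878 CPM in CF libraries and 4556 to 9060 CPM in WT libraries. Except for the enterocyte markers, which were also used as a covariate, the part of these lists in the results was not tested.

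None of the 6 genes passed edgeR's quasi-likelihood test (Benjamini-Hochberg adjusted p below 0.05), where 28 of 16941 loci tested did (0.165%). At an unadjusted p below 0.05 Scnn1a alone among them passed, where 15.2% of loci did. DESeq2 called Scnn1a and none of the other 5, against 3.1% of the loci it tested, and limma-voom called none of the 6 and 0.13% of all loci. Scnn1a was also the only gene of the 6 whose 4 CF libraries all lay above its 4 WT libraries, a pattern found in 4.86% of loci. The median log2 fold change of the 6 was 0.18, against −0.0049 over all loci. As the tissue was homogenised whole, fewer cells of a type and less RNA per cell cannot be told apart.

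**Figure D1:**
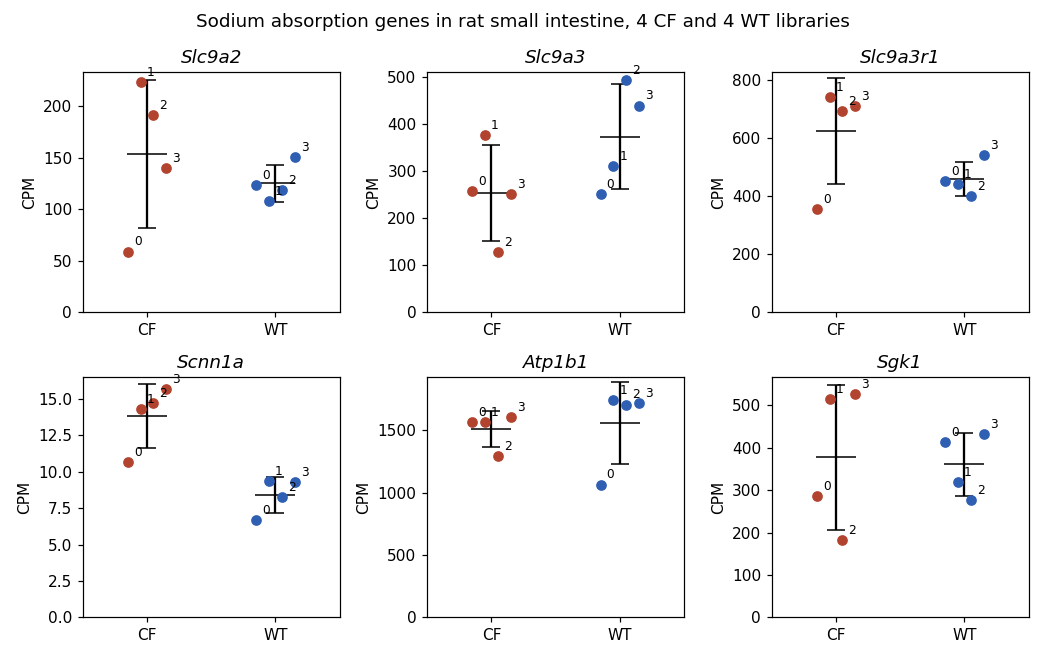
CPM (fragments relative to TMM-scaled library size) of the 6 sodium absorption genes in each CF (left) and WT (right) library, with the mean as a horizontal line and the SD as a bar (n = 4 each), the y axis starting at 0 and the small digits naming the library. Scnn1a has CF points at 10.7 to 15.7 CPM and WT points at 6.70 to 9.38 CPM, while the other 5 genes overlap between the groups.

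By length-scaled level (FPKM, the authors' values per library), the 6 genes spanned the range from an abundant housekeeping pump to a channel subunit near the low end. Atp1b1 averaged 754 ± 122 FPKM in CF and 813 ± 178 FPKM in WT (SD, n = 4 each, here and below). Slc9a3r1 averaged 316 ± 77.7 FPKM in CF and 244 ± 24.3 FPKM in WT, and Sgk1 167 ± 65.8 FPKM in CF and 165 ± 28.5 FPKM in WT. Then came the exchangers, with Slc9a3 ahead of Slc9a2, and last the channel subunit. Slc9a3 averaged 45.2 ± 17.2 FPKM in CF and 70.1 ± 23.6 FPKM in WT. Slc9a2 averaged 34.3 ± 17.6 FPKM in CF and 28.7 ± 4.09 FPKM in WT. Scnn1a averaged 3.52 ± 0.609 FPKM in CF and 2.19 ± 0.224 FPKM in WT. Atp1b1 lay above Slc9a3r1, and Slc9a2 above Scnn1a, with no overlap over the 8 libraries. The ranges of the neighbours in between overlapped, although the order held within each of the 8 libraries, except that Slc9a2 exceeded Slc9a3 in CF library 2.

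Slc9a3 encodes NHE3, the main exchanger of neutral sodium chloride absorption at the brush border (chromosome 1, 31734327 to 31777070, Rnor_6.0). It had 258, 376, 127 and 251 CPM in CF libraries 0 to 3, against 251, 310.1, 492 and 439 CPM in WT libraries 0 to 3. The extremes both carried the number 2: CF library 2 was the lowest of the 8 and WT library 2 the highest, while CF libraries 0 and 1 lay within the WT range and CF library 3 at its lower edge. The log2 fold change of Slc9a3, CF over WT, was −0.56 (SE 0.32, 95% interval −1.28 to 0.16), with an adjusted p of 0.448 by edgeR's quasi-likelihood test. On the linear scale the interval runs from 0.412-fold to 1.12-fold. Without CF library 2 the log2 value was −0.34 (SE 0.25).

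Slc9a2 encodes NHE2, a second apical exchanger of the gut (chromosome 9, 47386626 to 47491907). It had 58.9, 223, 192 and 139.8 CPM in CF libraries 0 to 3, against 124, 108, 118 and 151 CPM in WT libraries 0 to 3. The CF libraries spread 3.79-fold from lowest to highest and enclosed the WT libraries, which spread 1.39-fold. Slc9a2 had a log2 fold change of 0.29 (SE 0.35, 95% interval −0.49 to 1.08, adjusted p = 0.733, edgeR). Without CF library 0, where the enterocyte markers were also lowest, it was 0.56 (SE 0.17, adjusted p = 0.147, edgeR). It was 0.057 (SE 0.35) without CF library 1 and 0.17 (SE 0.38) without CF library 2. With the enterocyte score as a covariate it was 0.21 (SE 0.13, adjusted p = 0.435, edgeR).

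The other exchangers of the SLC9 family gave no call either. Of 9 listed, Slc9a2 and Slc9a3 included, 6 were tested and DESeq2 called none: 1 had a higher mean in CF and 5 a lower one, with a median log2 fold change of −0.26. At an unadjusted p below 0.05 there was 1 of the 6, lower in CF, where 15.2% of loci passed in either direction. The count of higher ones reached 3 when single libraries were left out. Slc9a8 (NHE8), an apical exchanger prominent in the immature gut, was nearly level, with 37.9 ± 2.16 CPM in CF libraries and 38.1 ± 2.34 CPM in WT libraries, and the sign of its log2 fold change of −0.01 (SE 0.09) turned under some settings. Slc9a4, the NHE4 exchanger best known from the stomach, had 2 and 1 fragments in CF libraries 0 and 1 and 0 in the other 6 libraries. A count of 0 in a library allows up to 3 fragments there by counting error.

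Slc9a3r1, the NHERF1 scaffold (chromosome 10, 103713045 to 103730145), had 354, 740.0, 692 and 710.4 CPM in CF libraries 0 to 3, against 453, 441, 400.5 and 542 CPM in WT libraries 0 to 3. CF libraries 1 to 3 lay above all WT libraries, and CF library 0 lay below them all, so the groups overlapped. Over all 8 libraries Slc9a3r1 had a log2 fold change of 0.44 (SE 0.22, 95% interval −0.04 to 0.93, adjusted p = 0.367, edgeR). Without CF library 0 it was 0.64 (SE 0.13, adjusted p = 0.0591, edgeR), and with the enterocyte score as a covariate 0.43 (SE 0.10, adjusted p = 0.0586, edgeR), both short of the threshold.

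Of the 13 scaffolds and binding partners of the exchangers, all were tested and none was called by edgeR or DESeq2. A higher mean in CF was found for 9 of them and a lower one for 4 (7 higher with upper-quartile scaling), with a median log2 fold change of 0.14. Ezr, which encodes ezrin, the linker between NHERF proteins and brush border actin, had 606, 872, 716 and 1052 CPM in CF libraries 0 to 3, against 599, 579, 503 and 621 CPM in WT libraries 0 to 3. Only CF library 0 lay within the WT range, and the log2 fold change was 0.50 (SE 0.17, adjusted p = 0.233, edgeR). Ezr passed with no low-count filter (adjusted p = 0.0330, edgeR). Slc9a3r2 (NHERF2), the close relative of Slc9a3r1, was at 27.1 ± 7.25 CPM in CF libraries and 27.1 ± 5.30 CPM in WT libraries, with no stable sign (log2 fold change 0.00, SE 0.19). Pdzk1 (NHERF3) was at 183 ± 79.7 CPM in CF libraries and 234 ± 77.1 CPM in WT libraries, with a log2 fold change of −0.36 (SE 0.34). It was −0.098 (SE 0.33) without WT library 3, where Pdzk1 was highest, −0.14 (SE 0.28) without CF library 0 and −0.56 (SE 0.35) without CF library 2.

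Across the 8 libraries, log2 CPM of Slc9a2 and Slc9a3r1 correlated with Pearson's r = 0.865 (two-sided exact permutation p = 0.00144, 0.0216 after Benjamini-Hochberg adjustment over 15 pairs) and Spearman's rho = 0.905 (exact permutation p = 0.00456, adjusted 0.0685). Without CF libraries 0 and 1, the 2 farthest from the median of Slc9a2, r was 0.796. In both genes CF library 0 was the lowest of all 8 and CF library 1 the highest. The centred level of the enterocyte markers had the same lowest and highest libraries. For 9 other pairs r lay between −0.304 and 0.596, with adjusted exact permutation p-values of 0.605 or more. The 5 pairs with Scnn1a are not given, since its groups were separate.

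**Figure D2:**
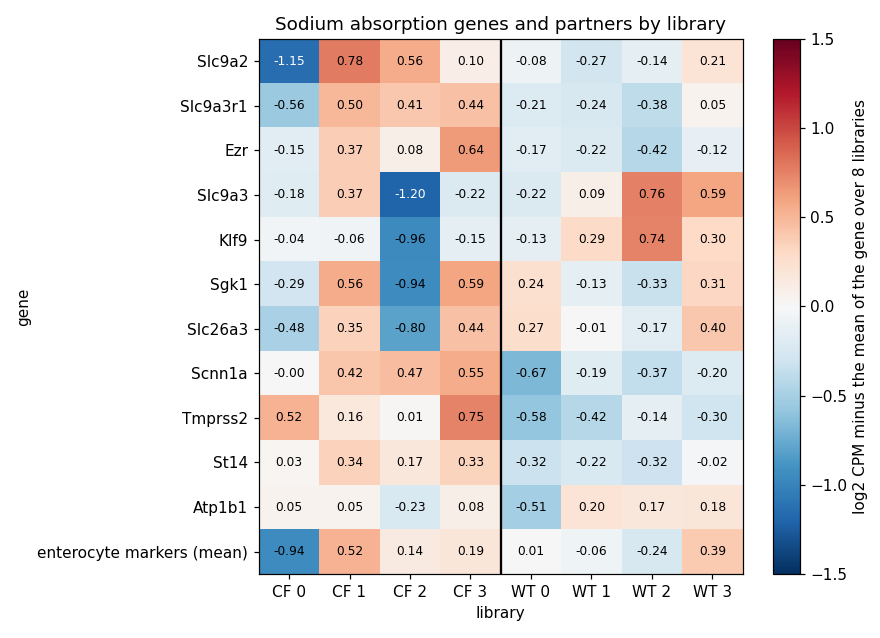
Log2 CPM of each gene minus its mean over the 8 libraries, in CF (left of the line) and WT libraries, for the 6 genes, 5 others and the mean of the enterocyte markers; red is above and blue below the mean, and the number is in each cell. Slc9a2, Slc9a3r1 and the enterocyte markers are lowest in CF library 0 (−1.15, −0.56 and −0.94), Slc9a3 and Sgk1 in CF library 2 (−1.20 and −0.94), and Atp1b1 in WT library 0 (−0.51).

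Scnn1a encodes the alpha subunit that ENaC needs to form a pore (chromosome 4, 157836674 to 157860049). It had 10.7, 14.3, 14.7 and 15.7 CPM in CF libraries 0 to 3, against 6.70, 9.38, 8.24 and 9.28 CPM in WT libraries 0 to 3. These rest on 221, 253, 277 and 314 fragments in CF libraries 0 to 3, against 110, 187, 177 and 136 fragments in WT libraries 0 to 3. All 4 CF libraries lay above all 4 WT libraries, and the CF mean was 1.65-fold the WT mean (95% interval 1.28 to 2.12). On the log2 scale this was 0.72 (SE 0.16), and its adjusted p of 0.101 by edgeR's quasi-likelihood test missed the threshold. Pan-epithelial markers (6 of 7 higher in CF) summed to 6016 to 9378 CPM in CF libraries and 5828 to 7488 CPM in WT libraries, and their part in the difference of Scnn1a was not tested.

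Whether Scnn1a passed turned on the method. It was called with DESeq2 (log2 fold change 0.73, adjusted p = 0.00895), with edgeR and no low-count filter (0.76, adjusted p = 0.00541, 1.38% of loci called), with the enterocyte score as a covariate (0.72, adjusted p = 0.0440, edgeR, 1.35% of loci) and without CF library 0 (0.83, adjusted p = 0.0396, edgeR, 0.781% of loci). It missed the threshold in the remaining settings, with log2 fold changes from 0.49 on log2(FPKM + 1) to 0.78 without WT library 1.

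The other pore subunits were scarce. Scnn1b, the beta subunit, had 17, 16, 3 and 38 fragments in CF libraries 0 to 3, against 3, 7, 8 and 5 in WT libraries 0 to 3. Scnn1g, the gamma subunit, had 13, 3, 0 and 32 fragments in CF libraries 0 to 3, against 1, 3, 1 and 3 in WT libraries 0 to 3. CF library 3 was the highest for both and CF library 2 the lowest of the CF libraries, and the groups overlapped. Neither passed the filter on low counts, so neither entered the main test. With no low-count filter the log2 fold change was 1.61 for Scnn1b (adjusted p = 0.103, edgeR) and 2.40 for Scnn1g (adjusted p = 0.402, edgeR). DESeq2 called neither (adjusted p = 0.225 for Scnn1b and 0.276 for Scnn1g). At these counts the level of both was 0.257 FPKM (Scnn1b) and 0.149 FPKM (Scnn1g) in CF, and 0.0953 FPKM (Scnn1b) and 0.0320 FPKM (Scnn1g) in WT, against 3.52 FPKM of Scnn1a in CF and 2.19 FPKM in WT.

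The ENaC list also holds the proteases that cut the channel, their inhibitors and the ubiquitin ligases that remove it. Of 12 tested, 11 had a higher mean in CF and 1 a lower one (10 to 11 higher with single libraries left out), with a median log2 fold change of 0.20. The pan-epithelial markers, with 6 of 7 higher in CF, had a median of 0.20 as well, and their part in the shift of the list was not tested. Unadjusted p was below 0.05 for 4, all higher in CF, where 7.94% of loci were, and the same number had CF libraries all above WT libraries, where 4.86% of loci did. edgeR called none of the 12. DESeq2 called 4 (Scnn1a, Tmprss2, St14 and Spint2), against 3.1% of the loci it tested. Tmprss2, a membrane serine protease of epithelia, had 566, 439, 397 and 662 CPM in CF libraries 0 to 3, against 264, 294, 356 and 320.3 CPM in WT libraries 0 to 3. The groups did not overlap, with CF libraries 0 and 3, those apart on the first principal component, the highest. Its log2 fold change was 0.74 (SE 0.17, adjusted p = 0.107 by edgeR, 0.00332 by DESeq2 and 0.000194 by edgeR with no low-count filter).

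St14 encodes matriptase, a membrane protease that activates prostasin. It had 342, 423, 376 and 421 CPM in CF libraries 0 to 3, against 268, 286, 269 and 329 CPM in WT libraries 0 to 3, and its log2 fold change was 0.44 (SE 0.12, adjusted p = 0.153 by edgeR and 0.0196 by DESeq2). Spint2, the membrane inhibitor of matriptase and prostasin and the list's most abundant gene, had 587, 690.0, 574 and 714 CPM in CF libraries 0 to 3, against 456, 456, 481 and 515 CPM in WT libraries 0 to 3. Neither gene had overlapping groups in CPM, and the log2 fold change of Spint2 was 0.43 (SE 0.12, adjusted p = 0.163 by edgeR and 0.0138 by DESeq2). In FPKM the groups of both genes overlapped. On log2(FPKM + 1) the log2 fold change was 0.39 for St14 (adjusted p = 0.660, limma) and 0.28 for Spint2 (adjusted p = 0.853, limma). Prss8, or prostasin, which cuts the gamma subunit, was at 85.6 ± 6.77 CPM in CF libraries and 75.2 ± 7.63 CPM in WT libraries (log2 fold change 0.19, SE 0.10). Nedd4l, the ubiquitin ligase that takes ENaC off the membrane, was at 77.8 ± 6.80 CPM in CF libraries and 71.0 ± 4.14 CPM in WT libraries (log2 fold change 0.13, SE 0.10).

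**Figure D3:**
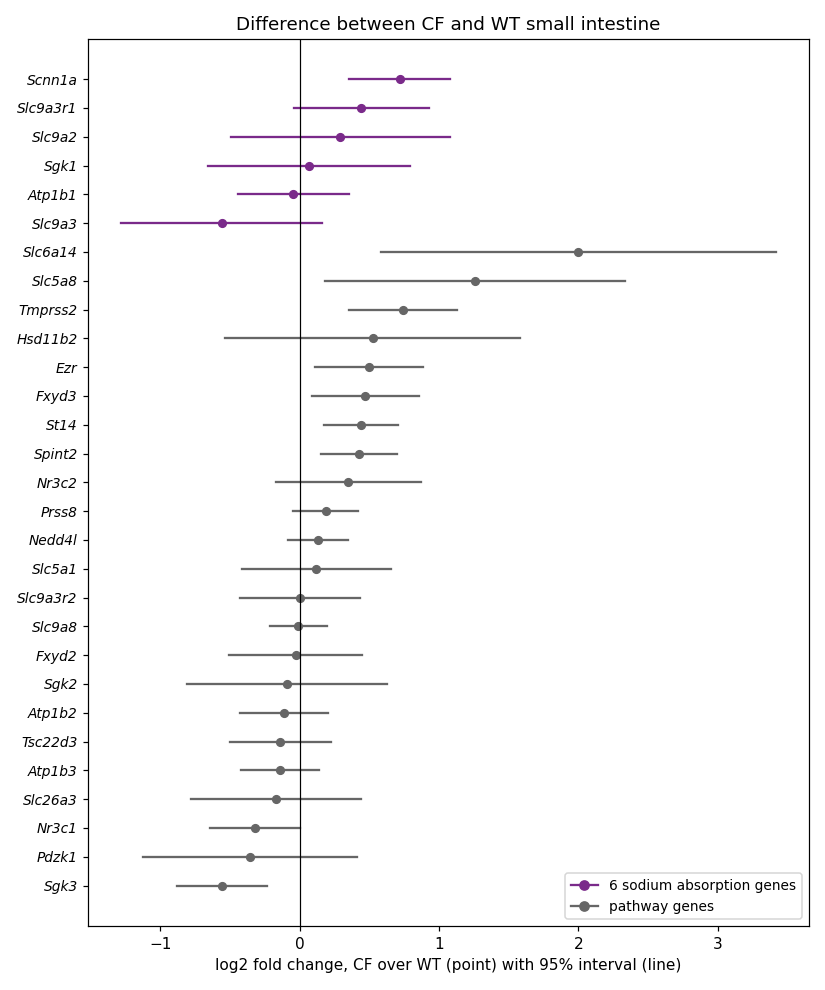
Log2 fold changes, CF over WT (point), with 95% intervals (line) from edgeR's quasi-likelihood test for the 6 genes (purple) and pathway genes (grey), each set ordered by size. The interval of Scnn1a runs from 0.36 to 1.08 and those of the other 5 of the 6 genes include 0.

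Atp1b1, the beta subunit that carries the pump to the basolateral membrane (chromosome 13, 82625809 to 82758004), spread least over the 8 libraries among the 6, at 1.63-fold from lowest to highest. It had 1569, 1568, 1294 and 1606 CPM in CF libraries 0 to 3, against 1065, 1740, 1708 and 1718 CPM in WT libraries 0 to 3. WT library 0 and CF library 2 lay apart below the rest, and the groups overlapped. Its log2 fold change was −0.05 (SE 0.18, 95% interval −0.45 to 0.35, adjusted p = 0.931, edgeR), an interval of 0.734-fold to 1.28-fold on the linear scale. Without WT library 0 the log2 value was −0.19 (SE 0.14). The locus span overlaps Nme7, whose fragments came to 0.520% of those of Atp1b1.

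The other beta subunits were less abundant per length than Atp1b1. Atp1b3 averaged 23.1 FPKM in CF and 26.1 FPKM in WT and Atp1b2 4.32 FPKM in CF and 4.89 FPKM in WT. Of 12 pump and FXYD genes tested, 4 had a higher and 8 a lower mean in CF (4 to 7 higher with single libraries left out), with a median log2 fold change of −0.04, and neither edgeR nor DESeq2 called any. At an unadjusted p below 0.05 only Fxyd3 passed, where 15.2% of loci did. Fxyd3 is a small membrane protein that modulates the pump. It had 14.2, 15.3, 13.1 and 19.5 CPM in CF libraries 0 to 3, against 8.83, 10.5, 11.5 and 14.0 CPM in WT libraries 0 to 3, and its log2 fold change was 0.47 (SE 0.17, adjusted p = 0.246, edgeR). Fxyd2, the gamma subunit of kidney pumps, was at 4.58 ± 0.462 CPM in CF libraries and 4.66 ± 1.19 CPM in WT libraries.

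Sgk1 (chromosome 1, 24185435 to 24302298) had 286, 514, 182 and 527 CPM in CF libraries 0 to 3, against 413, 319, 277 and 433 CPM in WT libraries 0 to 3. The CF libraries spread 2.90-fold, with libraries 1 and 3 above and library 2 below every WT library, and the WT libraries spread 1.56-fold. Sgk1 had a log2 fold change of 0.07 (SE 0.32, 95% interval −0.66 to 0.79, adjusted p = 0.944, edgeR), and its sign turned under other settings. Sgk2 was at 22.3 ± 7.75 CPM in CF libraries and 23.8 ± 9.83 CPM in WT libraries. Sgk3, a kinase that binds endosomal lipids, had 10.99, 10.3, 10.6 and 10.4 CPM in CF libraries 0 to 3, against 19.2, 14.2, 12.5 and 16.5 CPM in WT libraries 0 to 3. In CPM every CF library lay below every WT library, as at 3.91% of loci, while in FPKM the groups overlapped. The log2 fold change of Sgk3 was −0.56 (SE 0.14, adjusted p = 0.136 by edgeR and 0.0493 by DESeq2).

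Of the 17 corticosteroid and SGK1 pathway genes tested, 9 had a higher and 8 a lower mean in CF (8 higher with upper-quartile scaling and 5 to 11 with single libraries left out), with a median log2 fold change of 0.00. Sgk3 was the only one with an unadjusted p below 0.05, where 15.2% of loci passed. It was also the only one DESeq2 called, against 3.1% of the loci DESeq2 tested, and edgeR called none. Nr3c2, the mineralocorticoid receptor, had 12.0, 29.3, 26.7 and 22.8 CPM in CF libraries 0 to 3, against 19.4, 18.8, 16.1 and 17.0 CPM in WT libraries 0 to 3, so that CF library 0 was again below and the other 3 CF libraries above every WT library. Its log2 fold change was 0.35 (SE 0.23, adjusted p = 0.510, edgeR), 0.56 (SE 0.12, adjusted p = 0.0697) without CF library 0 and 0.21 (SE 0.24) without CF library 1. Nr3c1, the glucocorticoid receptor, has several loci and was read only at the one with most fragments. There it was at 74.8 ± 13.1 CPM in CF libraries and 93.3 ± 12.9 CPM in WT libraries (log2 fold change −0.32, SE 0.15, adjusted p = 0.334, edgeR). Hsd11b2, the enzyme that inactivates glucocorticoid and so leaves the mineralocorticoid receptor to aldosterone, had 15.9, 15.7, 6.76 and 39.5 CPM in CF libraries 0 to 3, against 10.8, 17.1, 14.3 and 11.9 CPM in WT libraries 0 to 3. CF library 3 was the highest and CF library 2 the lowest of the 8, as for Scnn1g. Tsc22d3 (GILZ), a glucocorticoid target, was at 51.1 ± 12.4 CPM in CF libraries and 56.2 ± 4.57 CPM in WT libraries, with CF library 3 the highest at 65.7 CPM and CF library 2 the lowest at 35.3 CPM.

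Fragment ratios within a library do not depend on scaling between libraries. The ratio of Slc9a3r1 to Slc9a3 was 1.37, 1.97, 5.44 and 2.83 in CF libraries 0 to 3, against 1.80, 1.42, 0.814 and 1.23 in WT libraries 0 to 3. The groups overlapped through CF library 0, and the difference of the mean log2 ratios, CF minus WT, was 1.003 (two-sided exact permutation p = 0.0857, 0.343 after Benjamini-Hochberg adjustment over 4 ratios, of which 3 are given). The smallest p that 4 against 4 libraries allow is 0.0286. The ratio of Slc9a2 to Slc9a3 was 0.228, 0.593, 1.51 and 0.557 in CF libraries 0 to 3, against 0.493, 0.349, 0.241 and 0.343 in WT libraries 0 to 3, a log2 difference of 0.75 with overlapping groups (exact permutation p = 0.257, adjusted 0.514). CF library 2, where Slc9a3 was lowest, gave the highest value of both ratios. Without it the log2 differences were 0.64 for Slc9a3r1 to Slc9a3 (exact permutation, adjusted p = 0.343) and 0.29 for Slc9a2 to Slc9a3 (adjusted p = 0.457). Without CF library 0 they were 1.30 for Slc9a3r1 to Slc9a3 and 1.20 for Slc9a2 to Slc9a3 (exact permutation, adjusted p = 0.0571 for each). In that setting the CF libraries all lay above the WT libraries in both ratios, the most extreme outcome this test can give.

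The ratio of Scnn1a to Scnn1b was 12.7, 15.4, 79.3 and 8.17 in CF libraries 0 to 3, against 31.6, 25.0, 20.9 and 24.8 in WT libraries 0 to 3. It rests on 3 to 38 Scnn1b fragments a library, and the log2 difference was −0.42 (exact permutation p = 0.600, adjusted 0.800). Single libraries set this value: it was −1.12 without CF library 2 (exact permutation, adjusted p = 0.114), −0.23 without CF library 0 and −0.023 without CF library 3. Without CF library 2 the CF ratios all lay below the WT ratios, so that adjusted p was the smallest a single ratio could reach.

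**Figure D4:**
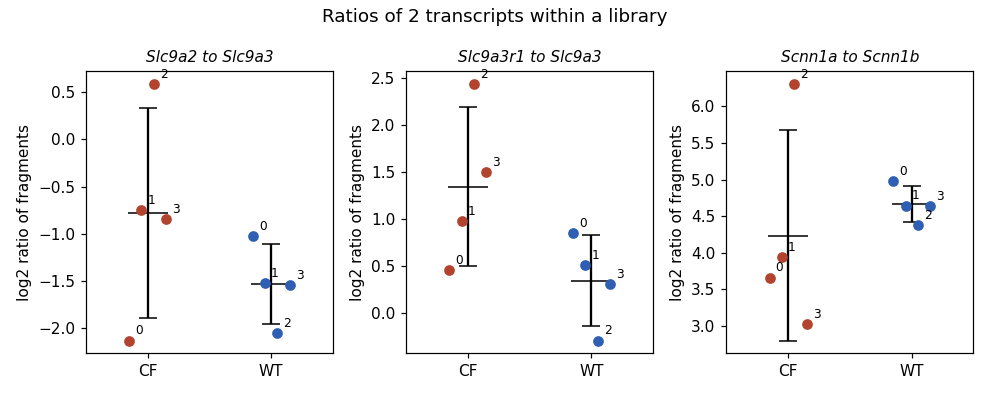
Log2 ratio of fragments of 2 genes in the same library, for CF (left) and WT (right) libraries, with the mean as a horizontal line and the SD as a bar (n = 4 each); the y axes differ between panels, and the small digits name the library. On the linear scale the ratio of Scnn1a to Scnn1b spans 8.17 to 79.3 in CF libraries and 20.9 to 31.6 in WT libraries.

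Genes with the most similar pattern were sought among 10073 named loci of at least 5 CPM, by Pearson's r of log2 CPM over the 8 libraries, which share depth and tissue makeup. For Slc9a2 they were Mpst (r = 0.992), Enpp3 (0.987) and Atg9a (0.981), and for Slc9a3r1 the glycerol and water channel Aqp3 (0.986), the epithelial keratin Krt8 (0.979) and the mevalonate kinase Mvk (0.974). For Slc9a3 they were Klf9 (0.931), a glucocorticoid-induced transcription factor, with Pts (0.925) and Ntpcr (0.924). For Sgk1 the chloride-bicarbonate exchanger Slc26a3 came first (0.957), followed by Pcsk5 (0.937) and Eps8 (0.935), and for Atp1b1 Ppm1d (0.982) and Cwh43 (0.936). For Scnn1a they were Fdps (0.986) and Hsd17b7 (0.982), enzymes of isoprenoid and cholesterol synthesis, and Tmem45b (0.984). As with Scnn1a, the CF libraries of these 3 all lay above the WT libraries, so their r includes the difference between the groups.

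Slc26a3 (DRA) works beside NHE3 in neutral sodium chloride uptake. It had 118, 209, 94.7 and 224 CPM in CF libraries 0 to 3, against 198, 164, 147 and 217 CPM in WT libraries 0 to 3, so that, as for Sgk1, CF library 2 was the lowest of the 8 and CF library 3 the highest. Its log2 fold change was −0.17 (SE 0.27, adjusted p = 0.810, edgeR). Of the 6 anion carriers tested, 4 had a higher and 2 a lower mean in CF (3 higher with upper-quartile scaling), with a median log2 fold change of 0.04. None was called by edgeR or DESeq2, and none had an unadjusted p below 0.05.

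Among sodium-coupled nutrient carriers, 10 of 16 tested had a higher mean in CF and 6 a lower one (8 higher with upper-quartile scaling), with a median log2 fold change of 0.06. None was called by edgeR or DESeq2, and 2 of the 16 had an unadjusted p below 0.05, where 15.2% of loci did. The CF libraries of these 2 all lay above the WT libraries, a pattern found in 4.86% of loci. Slc6a14, a carrier of neutral and basic amino acids, had 58.7, 15.6, 16.9 and 44.6 CPM in CF libraries 0 to 3, against 2.13, 9.23, 11.2 and 11.3 CPM in WT libraries 0 to 3. CF libraries 0 and 3 were the highest, and the log2 fold change was 1.999 (SE 0.61, adjusted p = 0.211, edgeR). Slc5a8, a sodium-coupled carrier of short-chain fatty acids, had 23.0, 31.9, 41.2 and 33.5 CPM in CF libraries 0 to 3, against 3.10, 13.4, 18.6 and 18.8 CPM in WT libraries 0 to 3. WT library 0 was the lowest of the 8 for both genes. The log2 fold change of Slc5a8 was 1.26 (SE 0.47, adjusted p = 0.272, edgeR). Slc5a1 (SGLT1), the glucose carrier of the brush border, was at 929 ± 226 CPM in CF libraries and 855 ± 232 CPM in WT libraries (log2 fold change 0.12, SE 0.24). Without CF library 0 Slc6a19, the main carrier of neutral amino acids, passed the test with a log2 fold change of 1.06 (adjusted p = 0.0336, edgeR). In that setting 0.781% of loci passed. No other setting called Slc6a19, and it was chosen after its values were seen.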

How the data were processed

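Stranded mRNA sequencing of 4 CF and 4 WT libraries of rat small intestine was analysed. The submitters' processing notes name STAR 2.3.1z, Cuffdiff, StringTie, cutadapt and bcl2fastq with build Rnor_6.0. Their settings, including the use of strand in counting, were not given in the sources used here. Raw fragments per locus and library are estimated counts that the authors deposited before scaling, per the file headers. Of these, 5.99% were not whole (tolerance 1e-06), and all were rounded. Cuffdiff's FPKM values per library were made by the authors, per the file headers, and serve to compare levels between genes. Another 2 value columns were left out. Spans are 1-based in Rnor_6.0 and cover bundles of transcripts. The table numbers libraries 0 to 3 and the titles 1 to 4, so the group of a library is known but not its title.

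Loci were kept by filterByExpr (minimum count 10, minimum total 15), scaled by TMM, and tested over 16941 loci in edgeR (robust quasi-likelihood fit, Benjamini-Hochberg threshold 0.05). Each standard error is the log2 fold change divided by the root of its F statistic. CPM are TMM-scaled. Log2 CPM used a prior count of 2, ratios 0.5. The procedure was tested on simulated data. There it called 10.6% of 66 loci changed 1.5-fold, 58.7% of 63 changed 2-fold and 87.3% of 63 changed 4-fold. False calls were 6 of 105, so most changes of 1.5-fold would be missed. Versions were edgeR 4.0.16, DESeq2 1.42.0 and limma 3.58.1 under R 4.3.3, and scipy 1.17.1, pandas 2.3.3 and matplotlib 3.10.9 under Python 3.11.15. Alternatives changed the scaling, filter, test, unit, block, covariate and libraries.

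The 6 genes and the 7 pathway lists (94 genes, 82 tested) were chosen with earlier results of these data known. A symbol with several loci, such as Nr3c1, was read at the locus with most fragments. The text names all 6 genes, set partners of them, the most abundant gene of each list, up to 3 per list with the smallest p below 0.05, and the 3 most similar loci of each gene (2 for Atp1b1). Some genes under this rule, and the ratio that needs one of them, are not reported here, while counts over lists include them. Fkbp5, Zbtb16, Klf9 and Slc6a19 were chosen after their values were seen, Klf9 being also among the most similar loci.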

Additional observations from a re-analysis of the deposited data

Results flagged for a closer look

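Each group of 4 libraries was searched, in 32 genes (64 groups), for a library whose gap to the next exceeded Dixon's 95% critical value. Chance gives about 1 in 20, and 6 were found. Slc9a3r1 was at 354 CPM in CF library 0, against 692 to 740.0 CPM in the other 3 CF libraries. Atp1b1 was at 1294 CPM in CF library 2, against 1568 to 1606 CPM in the other 3, and at 1065 CPM in WT library 0, against 1708 to 1740 CPM in the other 3 WT libraries. Klf9, the gene most similar to Slc9a3, was at 23.9 CPM in CF library 2, against 42.0 to 45.2 CPM in the other 3. Pdzk1 was at 349 CPM in WT library 3, against 191 to 202 CPM in the other 3. Slc9a8 was at 34.6 CPM in WT library 1, against 38.8 to 39.7 CPM in the other 3.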

How the results depend on the processing

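The call rate turned on the method: 28 loci passed edgeR's test, 553 with no low-count filter, 566 with DESeq2, 229 with the enterocyte covariate, and 5 to 136 with single libraries left out (136 without CF library 0 and 77 if CF library 2 was dropped, but 5, 5 and 6 when WT library 1, 2 or 3 was). The cause was not tested. Of the 6 genes, Scnn1a made the count 1 with no filter (log2 fold change 0.76), DESeq2 (0.73), the covariate (0.72) and without CF library 0 (0.83), and the count was 0 otherwise. Leaving out single libraries gave Scnn1a 0.63 to 0.83. Of the 94 pathway genes (82 tested by edgeR after the filter), 3 were called with no filter (1.38% of all loci), 5 with DESeq2 (3.1%), 2 with the covariate (1.35%) and 0 to 2 with single libraries left out. Scnn1a was among them in each setting that called any, joined by Ezr and Tmprss2 with no filter, by Tmprss2, St14, Spint2 and Sgk3 with DESeq2, by St14 with the covariate and by Slc6a19 without CF library 0. The small difference of Sgk1 changed sign with limma-voom (−0.049), log2(FPKM + 1) (−0.056), log2(FPKM + 0.1) (−0.057), the library number as a block (−0.042) and single libraries left out (−0.14 to 0.30). Atp1b1 ranged over −0.19 to 0.023 with single libraries left out. Slc9a2, Slc9a3 and Slc9a3r1 kept sign and side of the threshold in all alternatives run.

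Of 26 other genes 9 changed sign somewhere, all without a call. Slc9a8 was at 0.028 with no filter, 0.0039 with DESeq2 and −0.052 to 0.029 with single libraries left out. Slc9a3r2 was at −0.041 with upper-quartile scaling, −0.020 with voom, −0.076 on log2(FPKM + 1), −0.088 with a pseudocount of 0.1, −0.014 with the block, −0.048 with the covariate and −0.19 to 0.13 with single libraries left out. Sgk2 was at 0.018 and 0.021 on the same FPKM scales, and Fxyd2 at 0.0076 with no filter and 0.0037 with the block. With single libraries left out, the ranges were −0.33 to 0.21 for Sgk2, −0.195 to 0.059 for Fxyd2, −0.079 to 0.81 for Hsd11b2, −0.28 to 0.0061 for Tsc22d3, −0.37 to 0.020 for Slc26a3, −0.052 to 0.28 for Slc5a1 and −0.012 to 1.22 for Zbtb16.

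For libraries with the same number in both groups, deviations from the group means had correlations of 0.0651, −0.106, 0.163 and −0.00826. Those of differently numbered libraries ran from −0.146 to 0.188. Whether libraries of the same number share a litter or batch was not tested, and the labels do not say. With the library number as a block 11 loci were called and none of the 6 genes. Depth limits scarce genes such as Scnn1g, which had 0 to 32 fragments a library.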

Other observations

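Fkbp5, Zbtb16 and Klf9 were chosen after their values were seen, and no list of glucocorticoid-responsive genes stands behind them. Fkbp5, a receptor co-chaperone strongly induced by glucocorticoid, had 378, 159, 17.1 and 394 CPM in CF libraries 0 to 3, against 24.9, 179, 195 and 71.9 CPM in WT libraries 0 to 3. Zbtb16, a transcription factor likewise induced, had 91.0, 29.4, 3.67 and 104 CPM in CF libraries 0 to 3, against 6.82, 60.6, 93.6 and 5.53 CPM in WT libraries 0 to 3. In both genes CF libraries 0 and 3 were high and CF library 2 the lowest of all, except that Zbtb16 in WT library 2 exceeded CF library 0. Within CF they spread 23.1-fold (Fkbp5) and 28.3-fold (Zbtb16), and within WT 7.84-fold and 16.9-fold, where Sgk1 spread 2.90-fold within CF and 1.56-fold within WT. Klf9, also glucocorticoid-induced, spread 1.89-fold within CF, less than Sgk1, and 1.83-fold within WT, more than Sgk1. It had 45.2, 44.7, 23.9 and 42.0 CPM in CF libraries 0 to 3, against 42.4, 56.9, 77.7 and 57.3 CPM in WT libraries 0 to 3. The log2 fold changes were 1.01 (SE 0.95) for Fkbp5, 0.45 (SE 1.15) for Zbtb16 and −0.59 (SE 0.23) for Klf9, with adjusted p-values of 0.663, 0.890 and 0.276 by edgeR's quasi-likelihood test. Of the sodium absorption genes Sgk1 was also lowest in CF library 2 and highest in CF library 3, and Slc9a3 was lowest in CF library 2. Elsewhere the order of Sgk1 differed. In CF library 0, where Fkbp5 and Zbtb16 were high, Sgk1 was at 286 CPM, below CF libraries 1 and 3. Among WT libraries Sgk1 was highest in libraries 0 and 3 (413 and 433 CPM), where Fkbp5 and Zbtb16 were lowest.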
